A study of Mus musculus with 12 samples.

Results

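The dystrophin-glycoprotein complex was described through 8 of its genes, chosen by gene symbol: Dmd, Dag1, Sgca, Sgcb, Sgcd, Sspn, Sntb1 and Dtna. All 8 symbols matched 1 gene each among the 31057 genes of the count table, and all 8 passed the filter on low counts that left 17201 genes for testing. RNA had been sequenced from mouse tibialis anterior, a muscle of the lower hind leg, in 12 libraries that form 4 groups of 3. The mice were C57BL/6 and 7 weeks old, and the muscle was frozen 48 h after the left sciatic nerve had been cut; the unoperated leg gave the innervated muscle. The dKO groups, denervated and innervated, carry H2A-Z.1-/- and H2A-Z.2-/- together with HSA Cre+, and the WT groups, denervated and innervated, carry the floxed alleles of both genes and are Cre WT in the labels. HSA Cre is known as a transgene that expresses Cre in skeletal muscle fibres from a skeletal actin promoter, so other cells of the muscle keep their H2A.Z genes; H2A.Z is a variant of histone H2A, made in mice from H2afz (H2A.Z.1) and H2afv (H2A.Z.2). The question set by the design was whether dKO muscle differs from WT in basal RNA levels and in the RNA response to loss of the nerve.

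In muscle fibres this complex is known to link the actin cytoskeleton beneath the membrane to laminin in the basement membrane. Dystrophin, the product of Dmd, binds actin on the inside and beta-dystroglycan at the membrane, alpha-dystroglycan binds laminin on the outside, and the sarcoglycans and sarcospan form a membrane subcomplex beside them. Dystrobrevin and the syntrophins bind dystrophin from the cytoplasm and carry signalling proteins, and loss of single members causes muscular dystrophies.

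Libraries held 55668606 to 87753152 counts in genes, and every complex gene had between 215 and 44707 counts in every library. Values below are CPM, counts scaled to library size by the trimmed mean of M values (TMM), unless another scale is named. All 8 muscle fibre markers checked (Ckm, Acta1 and the like) had at least 15641 counts in every library. H2afv, the check of the genotype labels, had 4.78 to 6.06 CPM in the 6 dKO libraries and 18.5 to 24 CPM in the 6 WT libraries. Its log2 difference, dKO over WT, was -2.05 in denervated legs (edgeR adjusted p = 5.23e-06) and -1.96 in innervated legs (edgeR adjusted p = 8.89e-06). H2afz was lower in dKO by point estimate (log2 difference -0.57 in denervated and -0.69 in innervated legs) and did not pass the test (edgeR adjusted p = 0.287 and 0.175). Relative to their own group mean, innervated dKO replicate 1 and denervated WT replicate 2 lay lowest in base composition, and they are called so below. The 20% of genes richest in G and C deviated from their group mean by -0.19 and -0.29 on the log2 scale relative to the poorest 20% there, against -0.08 to 0.18 in the other 10 libraries, so that the deviation of innervated dKO replicate 1 was close in size to the largest in the other direction. The unoperated leg of the mice was the control, but no label names the animal of a library, and the test takes the legs as separate samples. Its p-values measure the spread between these samples, and nerve loss, surgery and body side cannot be told apart.

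Denervation for 48 h lowered the RNA of 5 of the 8 genes in each genotype and raised none. Sgcd (delta-sarcoglycan), Dtna (alpha-dystrobrevin) and Sspn (sarcospan) fell most, to between 23.3% and 41.4% of the innervated level. Dag1 (dystroglycan) fell to 61.1% in dKO and 57.7% in WT, and Dmd (dystrophin) to 77.5% in dKO and 79% in WT. Sgca and Sgcb (alpha- and beta-sarcoglycan) and Sntb1 (beta-1-syntrophin) did not pass the test. The background was high: at an edgeR adjusted p below 0.05, 20.2% of the 17201 tested genes fell and 21.9% rose in dKO, and 21% fell and 23.1% rose in WT. A fall of at least 2-fold was rarer, at 5.81% of tested genes in dKO and 6.1% in WT, and was seen for 3 of the 8 genes in each genotype. The median log2 change of the 8 genes was -0.54 in dKO and -0.57 in WT, beside -0.03 and -0.00 over all tested genes. Denervated and innervated legs did not overlap for 5 of the 8 genes in dKO (4 lower, 1 higher) and for 6 of the 8 in WT (all lower), against 52.6% and 51.5% of all tested genes in either direction and 26% and 25.1% of them lower. In bulk tissue, fewer cells of a type and less RNA per cell cannot be told apart.

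**Figure D1:**
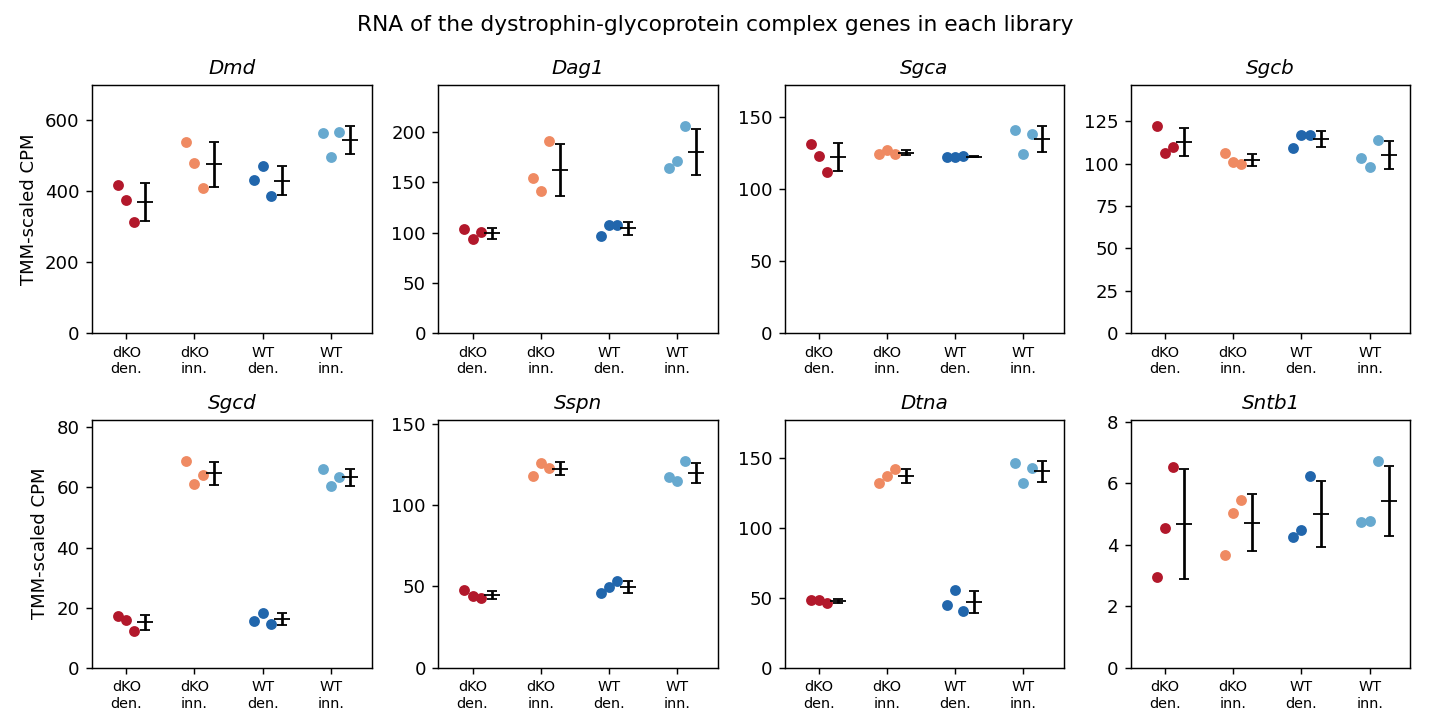
TMM-scaled CPM (vertical axes, each starting at 0) of the 8 complex genes in the 12 libraries; points are libraries, and the bar beside them is the mean ± SD of the 3 libraries of a group (dKO or WT, den. for denervated, inn. for innervated). Sgcd, Sspn and Dtna are low in all 6 denervated libraries, at 12.3 to 55.4 CPM, and Sgca, Sgcb and Sntb1 sit at similar heights in the 4 groups.

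The sarcoglycans are single-pass membrane proteins that assemble as one unit in muscle, and the RNAs of the 3 described here parted after denervation. Sgcd (ENSMUSG00000020354, chromosome 11, 46896253 to 47988969, minus strand of GRCm38) had 17.1, 15.9 and 12.3 CPM in denervated dKO legs and 68.8, 61.2 and 64.3 CPM in innervated dKO legs. In WT it had 15.7, 18.3 and 14.5 CPM in denervated legs and 66, 60.5 and 63.6 CPM in innervated legs. Every denervated library lay more than 3-fold under every innervated one. The log2 change was -2.10 ± 0.12 in dKO (SE, n = 3 legs per group; edgeR adjusted p = 3.92e-08) and -1.97 ± 0.12 in WT (edgeR adjusted p = 6.71e-08). Among all tested genes, 1.26% in dKO and 1.52% in WT had a lower log2 change.

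Sgca (ENSMUSG00000001508, chromosome 11, 94962791 to 94976327, minus strand) had 131, 123 and 112 CPM in denervated dKO legs, against 124, 127 and 124 CPM in innervated dKO legs. In WT legs it had 122, 122 and 123 CPM after denervation, against 141, 124 and 138 CPM with the nerve. The groups overlapped in dKO, while all 3 denervated WT values lay just under the lowest innervated one. The log2 change was -0.03 in dKO (95% interval -0.20 to 0.13; edgeR adjusted p = 0.777) and -0.14 in WT (95% interval -0.30 to 0.03; edgeR adjusted p = 0.175); with upper-quartile scaling the WT value was -0.22 and passed the test (adjusted p = 0.0279).

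Sgcb (ENSMUSG00000029156, chromosome 5, 73632749 to 73647790, minus strand) had 122, 106 and 110 CPM in denervated dKO legs and 106, 101 and 99.5 CPM in innervated dKO legs. In WT the values were 109, 117 and 117 CPM in denervated legs and 103, 97.9 and 114 CPM in innervated legs. The WT groups overlapped, and in dKO the lowest denervated and the highest innervated value both rounded to 106 CPM. The log2 change was 0.14 in dKO (95% interval -0.03 to 0.31; edgeR adjusted p = 0.177) and 0.12 in WT (95% interval -0.05 to 0.29; edgeR adjusted p = 0.248). Scaled by library totals alone it was 0.31 in dKO and 0.36 in WT and passed the test (edgeR adjusted p = 0.00323 and 0.00103), a scaling that moves the median of all genes by 0.17 in dKO and 0.24 in WT. Relative to that median, Sgcb had the same log2 change under both scalings, 0.17 in dKO and 0.12 in WT.

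Legs of the same replicate number gave 6 denervated-innervated pairs, and in every pair Sgcd moved further down than Sgca and Sgcb. The log2 change of Sgca exceeded that of Sgcd by 1.71 to 2.23 over the 6 pairs (median 1.93), and that of Sgcb by 1.98 to 2.53 (median 2.16). Per kilobase, as the authors deposited the values, the ratio of Sgca to Sgcd was 9.25 ± 0.858 in denervated and 2.19 ± 0.157 in innervated dKO legs, and 8.63 ± 0.996 in denervated and 2.4 ± 0.0766 in innervated WT legs (SD, n = 3 each). The size of that ratio rests on the gene lengths used, but the fold between legs does not.

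**Figure D2:**
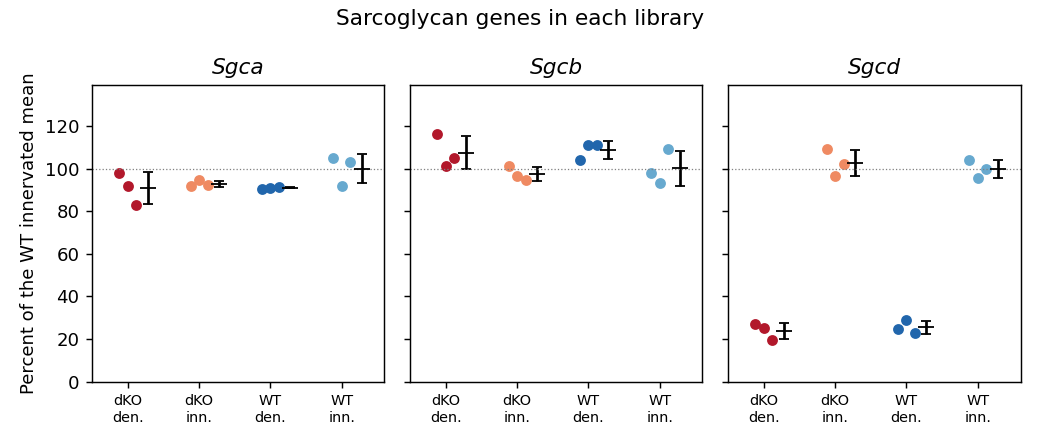
Level of the 3 sarcoglycan genes as a percent of each gene's mean in innervated WT legs (vertical axis from 0; dotted line at 100); points are libraries, and bars are mean ± SD of 3 libraries. Sgcd is the lowest of the 3 in all 6 denervated libraries, at 19.5% to 28.9%, and Sgca and Sgcb stay between 83.1% and 116%.

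Sspn and Sgca stand beside Sgcd here as a second gene that fell and as one that did not pass the test, and the promoter windows of the 3 genes are shown for that reason. Each window runs 5′ to 3′ on the gene's strand over 300 bases, 250 before and 50 after a RefSeq start site (GRCm38.p6). Capitals mark each CANNTG, the general E-box letters of basic helix-loop-helix factors, the myogenic factor MyoD among them. Which factor binds a marked stretch was not tested. Sgcd is shown at chr11:47379276-47379575 (minus strand), Sspn at its 2 RefSeq starts, chr6:145931623-145931922 and chr6:145933872-145934171 (plus strand), and Sgca at chr11:94976278-94976577 (minus strand).
Sgcd: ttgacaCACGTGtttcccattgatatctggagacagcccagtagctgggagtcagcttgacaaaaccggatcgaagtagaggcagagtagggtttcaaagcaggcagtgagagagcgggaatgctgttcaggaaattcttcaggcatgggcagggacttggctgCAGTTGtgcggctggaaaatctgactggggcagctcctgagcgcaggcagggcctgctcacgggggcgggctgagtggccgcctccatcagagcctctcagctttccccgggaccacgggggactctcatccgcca
Sspn, upstream start: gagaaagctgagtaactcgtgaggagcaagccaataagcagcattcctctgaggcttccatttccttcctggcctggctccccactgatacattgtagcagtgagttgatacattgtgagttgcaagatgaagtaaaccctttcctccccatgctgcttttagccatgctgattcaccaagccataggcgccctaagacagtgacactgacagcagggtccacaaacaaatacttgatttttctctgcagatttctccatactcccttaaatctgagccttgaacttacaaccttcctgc
Sspn, downstream start: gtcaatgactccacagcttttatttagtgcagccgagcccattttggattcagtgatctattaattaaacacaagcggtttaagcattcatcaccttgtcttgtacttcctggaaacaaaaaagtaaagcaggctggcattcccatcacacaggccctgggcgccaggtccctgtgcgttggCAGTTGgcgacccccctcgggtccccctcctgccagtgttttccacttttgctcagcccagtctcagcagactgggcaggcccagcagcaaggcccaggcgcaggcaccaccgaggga
Sgca: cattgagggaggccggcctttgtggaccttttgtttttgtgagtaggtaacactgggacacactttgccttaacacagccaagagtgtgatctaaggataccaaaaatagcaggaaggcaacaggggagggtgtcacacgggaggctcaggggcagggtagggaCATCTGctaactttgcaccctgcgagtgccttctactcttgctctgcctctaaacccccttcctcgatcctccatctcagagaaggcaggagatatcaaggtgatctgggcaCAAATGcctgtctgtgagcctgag
CANNTG reads the same on both strands and was found in 72.3% of 32851 RefSeq windows of this length, with a median of 1 per window. Sgcd held 2, the Sspn starts held 0 and 1, and Sgca held 2. CAGCTG, one form of it, was in 16.3% of all windows and in none of the windows matched to the 8 genes. RefSeq windows matched 6 of the 8 genes, without Sntb1 and Dtna. The RefSeq start used for Sgcd lies 609644 bases downstream of the most upstream GENCODE start of that gene, and gene-level counts do not say which start was used.

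Sspn, a small protein with 4 membrane spans that binds the sarcoglycans, fell in both genotypes. Its gene (ENSMUSG00000030255, chromosome 6, 145931641 to 145965223, plus strand) had 47.6, 44.4 and 42.8 CPM in denervated dKO legs, against 118, 126 and 123 CPM in innervated dKO legs. In WT legs it had 45.9, 49.5 and 53.2 CPM after denervation, against 117, 115 and 127 CPM with the nerve. The groups were far apart, and the log2 change was -1.45 ± 0.08 in dKO (SE; edgeR adjusted p = 2.56e-08) and -1.27 ± 0.08 in WT (edgeR adjusted p = 7.42e-08). Sspn shares 69 exon bases with Sspnos on the other strand. The library kit kept strand, but whether the counting used it is not given in the sources used here, so reads of that stretch cannot be assigned with certainty.

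Dag1 encodes both dystroglycan subunits, the laminin receptor and its membrane anchor. It lies on chromosome 9 (ENSMUSG00000039952, 108204634 to 108263958, minus strand) and had 104, 93.2 and 101 CPM in denervated dKO legs and 154, 142 and 191 CPM in innervated dKO legs. In WT it had 97, 108 and 108 CPM in denervated legs and 164, 171 and 206 CPM in innervated legs. No denervated value reached an innervated one. The log2 change was -0.71 ± 0.12 in dKO (SE; edgeR adjusted p = 2.88e-04) and -0.79 ± 0.12 in WT (edgeR adjusted p = 1.16e-04).

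Dmd lies on the X chromosome (ENSMUSG00000045103, 82948870 to 85206141, plus strand), and its counts sum over full-length dystrophin and the shorter products of internal promoters. It had 418, 376 and 312 CPM in denervated dKO legs and 538, 480 and 410 CPM in innervated dKO legs. In WT it had 432, 470 and 387 CPM in denervated legs and 565, 498 and 568 CPM in innervated legs. The dKO groups overlapped and the WT groups did not, and the denervated leg was lower in all 3 same-numbered pairs of each genotype, by log2 changes of -0.39 to -0.35 in dKO and -0.56 to -0.08 in WT. The fitted log2 change was -0.37 ± 0.13 in dKO (SE; edgeR adjusted p = 0.0326) and -0.34 ± 0.13 in WT (edgeR adjusted p = 0.0443).

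The Dmd call was the least stable of the 5. Of 20 alternative settings, 13 kept it in each genotype. In dKO it was lost without denervated dKO replicate 2 (edgeR adjusted p = 0.0792) or 3 (log2 change -0.24, 0.165), without innervated dKO replicate 1 (0.136) or 2 (0.0754), and without both libraries lowest in base composition (log2 change -0.27, 0.123). In WT it was lost without denervated WT replicate 1 (edgeR adjusted p = 0.0809) or 3 (0.163), without innervated WT replicate 1 (0.116) or 3 (0.12), and without dKO replicate 2 of either leg (0.0613 denervated, 0.0572 innervated). Scaling by library totals ended the call in both genotypes (log2 change -0.20 in dKO, edgeR adjusted p = 0.167, and -0.10 in WT, 0.488), and fitting the dKO groups alone ended it in dKO (0.0525). With replicate number as a block the call held, at an edgeR adjusted p of 0.00643 in dKO and 0.0094 in WT.

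Utrophin, the dystrophin relative encoded by Utrn, was close to level: 187 ± 14.8 CPM in denervated and 197 ± 19.1 CPM in innervated dKO legs, and 183 ± 9.8 CPM in denervated and 193 ± 8.99 CPM in innervated WT legs (SD, n = 3 each). Its log2 change of -0.07 in each genotype did not pass the test (edgeR adjusted p = 0.542 in dKO and 0.549 in WT).

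Dtna encodes alpha-dystrobrevin, a cytoplasmic relative of dystrophin that binds it and the syntrophins. On chromosome 18 (ENSMUSG00000024302, 23415135 to 23659715, plus strand), it had 48.6, 48.4 and 46.4 CPM in denervated dKO legs, against 132, 137 and 142 CPM in innervated dKO legs. WT legs had 44.8, 55.4 and 40.3 CPM after denervation, against 146, 132 and 143 CPM with the nerve. The groups did not overlap in either genotype. The log2 change was -1.52 ± 0.10 in dKO (SE; edgeR adjusted p = 1.64e-07) and -1.58 ± 0.10 in WT (edgeR adjusted p = 1.17e-07). Dtna shares 90 exon bases with Gm47898 on the other strand. Its relative Dtnb did not pass the test, with log2 changes of -0.21 in dKO (edgeR adjusted p = 0.127) and -0.00 in WT (edgeR adjusted p = 0.976). As a percent of both dystrobrevins per deposited kilobase, Dtna made up 78.7 ± 1.29 in denervated and 90.2 ± 1.07 in innervated dKO legs, and 78.1 ± 2.6 in denervated and 91.4 ± 1.07 in innervated WT legs (SD, n = 3 each). These percents and their difference between legs rest on the gene lengths used. For Dtna the deposited length is 2.05 kb, against 6.29 kb for its longest coding transcript.

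Sntb1 encodes beta-1-syntrophin, an adaptor on dystrophin and dystrobrevin, and was the lowest of the 8. Its gene (ENSMUSG00000060429, chromosome 15, 55636388 to 55906949, minus strand) had 2.96, 4.56 and 6.53 CPM in denervated dKO legs, against 3.67, 5.03 and 5.46 CPM in innervated dKO legs. WT legs had 4.27, 4.49 and 6.25 CPM after denervation, against 4.76, 4.78 and 6.73 CPM with the nerve. All groups overlapped, and the library numbered 3 was the highest in each of the 4 groups. The log2 change was -0.01 in dKO (95% interval -0.57 to 0.56; edgeR adjusted p = 0.984) and -0.12 in WT (95% interval -0.68 to 0.44; edgeR adjusted p = 0.754), the widest intervals of the 8 genes.

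**Figure D3:**
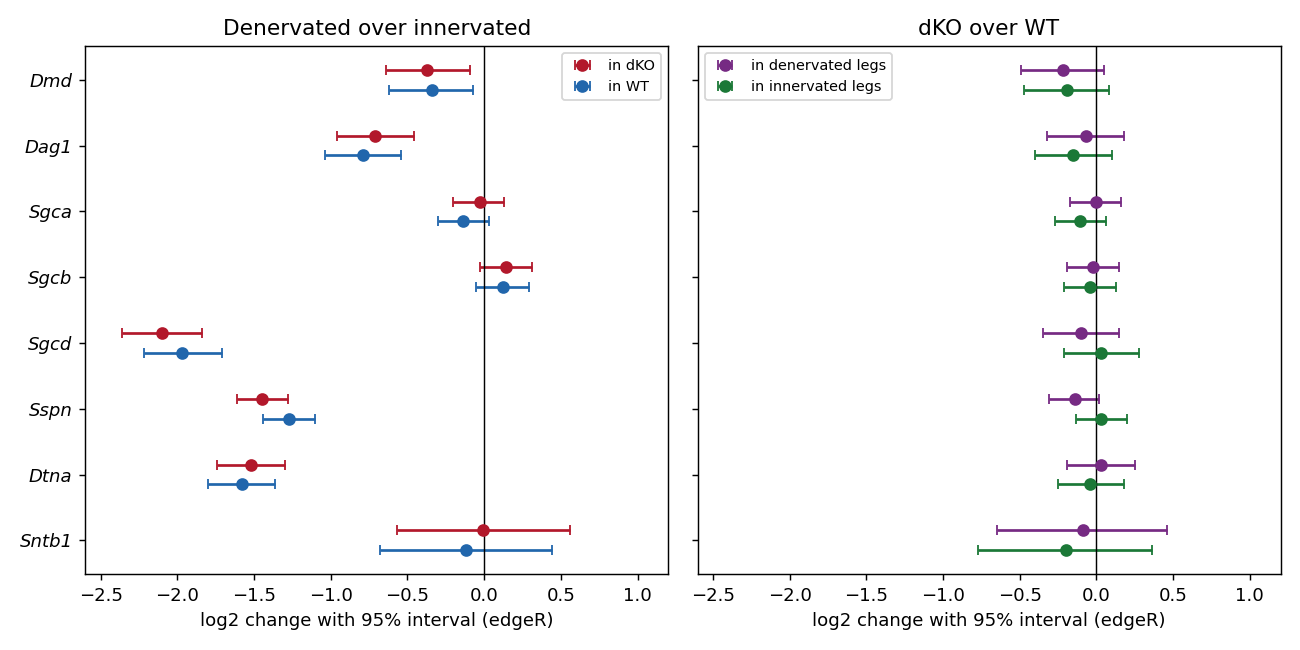
Log2 change with its 95% interval from the edgeR fit (horizontal axis) for the 8 genes (vertical axis): denervated over innervated legs on the left, dKO above WT, and dKO over WT on the right, denervated legs above innervated legs. On the left, 5 genes in each genotype have intervals below 0, from -2.36 for Sgcd to -0.07 for Dmd; on the right every interval includes 0.

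No change in any of the 8 genes was detected in dKO muscle beside WT. Comparing dKO with WT, 0 of the 8 passed the edgeR test in denervated legs, where 0.36% of all tested genes passed, and 0 of the 8 in innervated legs, where 0.459% passed. None had an unadjusted edgeR p below 0.05 in either leg, and DESeq2 called none. Of the 17201 tested genes, 1683 in denervated and 1814 in innervated legs had such an unadjusted p. In denervated legs the log2 differences ran from -0.22 (Dmd) to 0.03 (Dtna), with edgeR adjusted p of 0.609 to 0.999. In innervated legs they ran from -0.20 (Sntb1) to 0.03 (Sgcd and Sspn), with edgeR adjusted p of 0.633 to 0.956. No gene had groups that did not overlap, against 14% of all tested genes in denervated and 17.1% in innervated legs.

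The intervals bound what these legs could hide. For Sgca, Sgcb and Sspn the 95% interval of dKO over WT lay within log2 values of -0.31 and 0.20 in both legs. For Dmd, averaging 369 ± 53.1 CPM in denervated dKO and 430 ± 41.6 CPM in denervated WT legs, it reached -0.49; in innervated legs, with 476 ± 64.1 CPM in dKO and 544 ± 39.9 CPM in WT (SD, n = 3 each), it reached -0.47. For Sntb1 it was widest, -0.65 to 0.46 in denervated and -0.77 to 0.36 in innervated legs. The response to denervation was tested directly for a difference between genotypes. No gene of the 17201 passed by edgeR (0%) or by DESeq2. An unadjusted edgeR p below 0.05 was seen for 374 of the 17201, none of them among the 8. The largest interaction estimate among the 8 was -0.18 for Sspn (95% interval -0.41 to 0.06; edgeR adjusted p = 1), the deeper fall being in dKO.

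In the authors' deposited table, with the sign turned to denervated over innervated, Sgcd had log2 changes of -2.05 in dKO and -1.93 in WT. The authors' deposited table gave Dmd adjusted p-values of 0.0266 in dKO and 0.0302 in WT, and Sgca adjusted p-values of 0.909 and 0.192. In the authors' deposited table no complex gene had an adjusted p below 0.05 between genotypes. For denervated legs this rests on p-values assigned to that comparison by their position in the table.

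Levels of the 8 genes against each other depend on the length each is divided by. Per kilobase of the longest coding GENCODE transcript, Sgca was highest in innervated WT legs at 77.9 ± 5.42 CPM per kb, followed by Dmd at 36.5 ± 2.68, Dag1 at 31.9 ± 4.02, Sgcb at 27.8 ± 2.23, Sspn at 26.5 ± 1.45, Sgcd at 25.9 ± 1.12, Dtna at 22.3 ± 1.16 and Sntb1 at 1.1 ± 0.23 CPM per kb (SD, n = 3). From Dmd to Sgcd each neighbour in this order overlapped the next, so only Sgca at the top, and Dtna and Sntb1 at the bottom, stood clear. In denervated legs Sgca stayed first (70.8 ± 5.78 CPM per kb in dKO and 70.9 ± 0.263 in WT), while Sspn, Dtna and Sgcd lay at 9.96 ± 0.54, 7.59 ± 0.194 and 6.16 ± 1 CPM per kb in dKO and at 11 ± 0.813, 7.44 ± 1.23 and 6.61 ± 0.785 CPM per kb in WT. The authors' own per-kilobase values put Dmd first in each group, at a mean of 12215 in denervated dKO and 17861 in innervated WT legs; the length implied by their table is 2.14 kb for Dmd, whose longest coding transcript has 14.9 kb. How that length was set is not given in the sources used here. Folds between legs or genotypes do not depend on it.

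The 8 genes fell into patterns that can be compared over the 12 libraries, which they share. After each gene was centred on its own mean log2 CPM, Sspn and Dtna differed by a root mean square of 0.17 and Sgca and Sgcb by 0.13, against 1.09 for Sgcb and Sgcd. The root mean square of the centred values themselves was 0.68 for Sspn and 0.78 for Dtna, but 0.09 for Sgca and 0.10 for Sgcb. Genes that vary this little differ little from any other level gene, so small differences for Sgca and Sgcb do not show a shared pattern. Among 12706 genes averaging at least 1 CPM, the closest to Sgcd were Rxrg, Serpine2 and Ppp2r3a (0.12 to 0.13), and to Sspn they were B4galt1, Ldha and Smyd1 (0.07 to 0.09). Closest to Dtna were Oxnad1, Fsd2 and Capn3 (0.10 to 0.13). The genes nearest to Dag1 were Myadm, Etv5 and Mylpf (0.07 to 0.10), and those nearest to Dmd were Lrrc61, Zfp563 and Opa1 (0.07 to 0.10). Sgca was followed most closely by Glo1, Adrbk1 and Ppp2r5c (0.05), Sgcb by Grlf1, Accs and Hs2st1 (0.05 to 0.06), and Sntb1 by Mamstr, Sh3rf1 and Fgfr4 (0.17 to 0.18). These are descriptions over 4 groups, in which the difference between legs dominates for the genes that fell.

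Genes of other known parts of the complex were counted in the same way. Over all tested genes, 20.2% fell and 21.9% rose in dKO, and 21% fell and 23.1% rose in WT. Of 8 further complex genes that could be tested (Sgcz, Sntg1 and Dytn were too low), 4 fell in each genotype and 0 rose, with a median log2 change of -0.29 in dKO and -0.26 in WT. These were Cav3 (caveolin-3; log2 change -0.49 in dKO and -0.79 in WT), Sgce (epsilon-sarcoglycan, which also occurs outside fibres; -0.38 and -0.35), Drp2 (to 49.9% of the innervated level in dKO; log2 change -1.45 in WT) and Sntg2 (15 to 51 counts a library; -0.89 and -1.48), with edgeR adjusted p of at most 0.0401. The dKO calls of Sntg2 and Sgce held in 8 of 19 and 13 of 20 settings, the WT call of Sgce in 12 of 20, and with library totals 2 of the 8 fell in dKO and 3 in WT. Without denervated dKO replicate 2, or innervated dKO replicate 1 or 3, 2 of the 8 fell in dKO. Sntb2 and Nos1, the neuronal nitric oxide synthase held by syntrophin, did not pass (log2 changes of 0.01 and -0.19 in dKO, and -0.17 and -0.02 in WT). Drp2 is known from myelinating Schwann cells, where it acts with periaxin. The 6 Schwann cell markers, all detected, summed to 27.6 to 32.3 CPM in denervated and 69.8 to 92 CPM in innervated dKO legs. In WT they summed to 31.1 to 35.8 CPM in denervated and 78.9 to 87.1 CPM in innervated legs. Of these markers, 4 fell in each genotype, and 2 rose in dKO and 1 in WT. Their part in the fall of Drp2 or of the 8 genes was not tested.

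Alpha-dystroglycan binds laminin through sugars that a chain of glycosyltransferases adds to it, and as a list these genes were called in each direction about as often as all genes. Of 16 tested, 4 rose and 4 fell in dKO, where 21.9% of all tested genes rose and 20.2% fell, and 5 rose and 3 fell in WT, where 23.1% rose and 21% fell. The median log2 changes were 0.14 in dKO and 0.02 in WT. With replicate number as a block 6 rose and 4 fell in dKO, and 2 fell there without any 1 of the denervated dKO replicates or without innervated dKO replicate 2 or 3. B3galnt2, which adds N-acetylgalactosamine to that glycan, rose by a log2 change of 0.83 in dKO (edgeR adjusted p = 1.31e-04) and 0.90 in WT (edgeR adjusted p = 6.82e-05). Pomt2, of the enzyme pair that adds the first mannose, rose by 0.47 in dKO and 0.60 in WT, and Dpm2, of the complex that makes the mannose donor, by 0.62 and 0.58 (edgeR adjusted p of at most 0.0044). Ispd, which makes the ribitol donor, rose by 0.52 in WT (edgeR adjusted p = 0.0115; called in 19 of 20 settings) and had 0.37 in dKO (edgeR adjusted p = 0.0611). Gyltl1b, a relative of the glycan-extending enzyme Large, fell by 1.32 on the log2 scale in dKO (edgeR adjusted p = 0.0319); this rests on 7 to 10 counts in denervated and 8 to 32 counts in innervated libraries and held in 12 of 18 settings. Scaled by library totals the split was 9 higher and 0 lower in dKO and 8 higher and 0 lower in WT.

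Genes of matrix proteins outside the membrane fell in most cases, beside 20.2% of all tested genes in dKO and 21% in WT. Of the 14 matrix genes, 10 fell in dKO and 13 in WT, and 0 rose. The medians of their log2 changes were -0.51 in dKO and -0.73 in WT. Col6a2 of collagen VI fell most (-1.14 in dKO and -1.29 in WT), followed in WT by Lamb2 and Lamb1, laminin beta chains (-1.03 and -0.93), and Hspg2, which encodes perlecan (-0.92). In dKO the next were Col6a1 (-0.82), Lamb2 (-0.79) and Lamc1 (-0.75). These named falls had edgeR adjusted p of at most 0.00218. In dKO 1 rose and 10 fell with replicate number as a block or without denervated WT replicate 1 or 2, and 1 rose and 7 fell without innervated dKO replicate 3; in WT 1 rose and 11 fell without denervated WT replicate 2. With library totals the split was 1 higher and 7 lower in dKO and 1 higher and 10 lower in WT. Fibroblast markers, 6 of 6 detected, summed to 3020 to 3398 CPM in denervated and 4620 to 7869 CPM in innervated dKO legs. In WT they summed to 2867 to 4975 CPM in denervated and 5109 to 7654 CPM in innervated legs. Of the 6, only the collagen genes Col1a1, Col1a2 and Col3a1 were called lower in each genotype. The other 3, Pdgfra, Dcn and Lum, were not called. Vessel wall markers (6 of 6 detected) summed to 622 to 660 CPM in denervated and 914 to 996 CPM in innervated dKO legs, and to 588 to 681 CPM in denervated and 970 to 1031 CPM in innervated WT legs. The endothelial sum was lower as well, at 345 to 370 CPM in denervated and 423 to 500 CPM in innervated dKO legs. In WT it was 345 to 427 CPM in denervated and 471 to 527 CPM in innervated legs. Of the 6 endothelial markers, Kdr, Emcn and Cdh5 were called lower in each genotype, and Pecam1, Tek and Vwf were not called. Muscle fibre markers themselves summed to 70849 to 83581 CPM in denervated and 87391 to 97802 CPM in innervated dKO legs, and to 71953 to 86175 CPM in denervated and 87778 to 124539 CPM in innervated WT legs. Of the 8 fibre markers, Mylk2 and Pygm were called lower in each genotype and Acta1 and Tnnt3 in WT alone, and the others were not called. The median log2 change of the 8 fibre markers was -0.27 in dKO and -0.43 in WT. Satellite cell markers summed higher, at 42.5 to 46.8 CPM in denervated and 26.5 to 32.4 CPM in innervated dKO legs. In WT they summed to 41.1 to 50.1 CPM in denervated and 31.1 to 36.1 CPM in innervated legs. Cdh15 of these was called higher in each genotype and Myf5 in WT alone. The neutrophil sum was higher too, with S100a8 the only gene of that list called. Of the 6 macrophage markers detected, Cd68 was called higher in each genotype and Itgam in WT alone, and the others were not called. Their sums overlapped between legs, at 105 to 144 CPM in denervated and 108 to 119 CPM in innervated dKO legs. For WT the macrophage sums were 94.1 to 127 CPM in denervated and 88.2 to 102 CPM in innervated legs. What these sums contribute to the falls was not tested.

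The integrin-based adhesions of the costamere, a second link between fibre and matrix, had 13 genes tested. Of these, 5 rose and 5 fell in dKO, and 2 rose and 6 fell in WT. Over all tested genes, 21.9% rose and 20.2% fell in dKO, and 23.1% rose and 21% fell in WT. The number of the 13 that rose was unstable. With replicate number as a block, 6 rose and 5 fell in dKO, and 5 rose and 6 fell in WT. In dKO 3 rose without denervated dKO replicate 2 or 3 or innervated dKO replicate 1, and 2 without innervated dKO replicate 2. In WT 1 rose without denervated WT replicate 1 or 3 or innervated WT replicate 2, and 0 without innervated WT replicate 1. Itgb1bp2 (melusin, which binds the beta-1 integrin tail) fell by 1.57 on the log2 scale in dKO and 1.66 in WT (edgeR adjusted p = 2.63e-06 and 1.72e-06). Flnc, filamin C, which binds delta-sarcoglycan, had a log2 change of 0.67 in dKO (edgeR adjusted p = 0.025; called in 15 of 20 settings) and 0.22 in WT (edgeR adjusted p = 0.451); no difference between genotypes was called in the interaction test. Of 11 membrane repair genes, 2 rose and 7 fell in dKO and 0 rose and 7 fell in WT. Trim72 (MG53, which patches torn membrane) fell by 1.66 in dKO and 1.78 in WT, and Capn3 (calpain-3) by 1.62 and 1.60, with edgeR adjusted p of at most 6.33e-06. The repair genes that fell numbered 4 in dKO without denervated dKO replicate 2, and 4 in WT without denervated WT replicate 1 or innervated WT replicate 2. Those that rose numbered 1 in dKO without denervated dKO replicate 1 or innervated dKO replicate 2 or 3, and 1 in WT without denervated or innervated WT replicate 3. With library totals 6 integrin genes were higher and 4 lower in dKO, and 5 higher and 4 lower in WT; 2 repair genes were then higher and 4 lower in each genotype.

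Among 16 cytoskeletal and membrane partners, 3 rose and 7 fell in dKO (4 fell without denervated dKO replicate 3), and 3 rose and 6 fell in WT. The shares of all tested genes were 21.9% up and 20.2% down in dKO, and 23.1% up and 21% down in WT. Krt8, a keratin that binds dystrophin with Krt19, had 12.1 to 24.7 CPM in denervated dKO legs, against 0.0447 to 0.165 CPM (3 to 11 counts) in innervated dKO legs. WT legs had 14.8 to 22.5 CPM after denervation, against 0 to 0.393 CPM (0 to 25 counts) with the nerve. It rose in both genotypes (edgeR adjusted p = 6.76e-07 in dKO and 7.48e-07 in WT), by a fold that the few innervated counts leave uncertain. Krt19, at 10 to 30 counts a library, did not pass the test. Its log2 changes were -0.18 in dKO (edgeR adjusted p = 0.75) and -0.04 in WT (edgeR adjusted p = 0.941). Ank2 (ankyrin-B, which helps place dystrophin at the membrane) fell by 1.10 in dKO and 1.08 in WT, and Aqp4 (a water channel held at the membrane through syntrophin) fell by 1.17 and 0.84 (edgeR adjusted p of at most 0.025; the WT call held in 16 of 20 settings). Fhl1, a LIM-domain protein of the sarcomere, fell by 1.61 in dKO and 2.18 in WT (edgeR adjusted p = 6.86e-06 and 6.62e-07). It was the only gene of these lists, the targeted genes aside, to pass the edgeR test between genotypes, in denervated legs. It had 938, 816 and 650 CPM in denervated dKO legs and 452, 463 and 353 CPM in denervated WT legs. The log2 difference was 0.92 (edgeR adjusted p = 0.0382). How this call held under the alternative settings is not given here. Over all genes the number called in that comparison ran from 4 to 289. Innervated legs had 2599, 2555 and 2179 CPM in dKO and 2306, 1605 and 1823 CPM in WT (log2 difference 0.35, edgeR adjusted p = 0.474). The interaction for Fhl1 was 0.57 (edgeR adjusted p = 1).

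**Figure D4:**
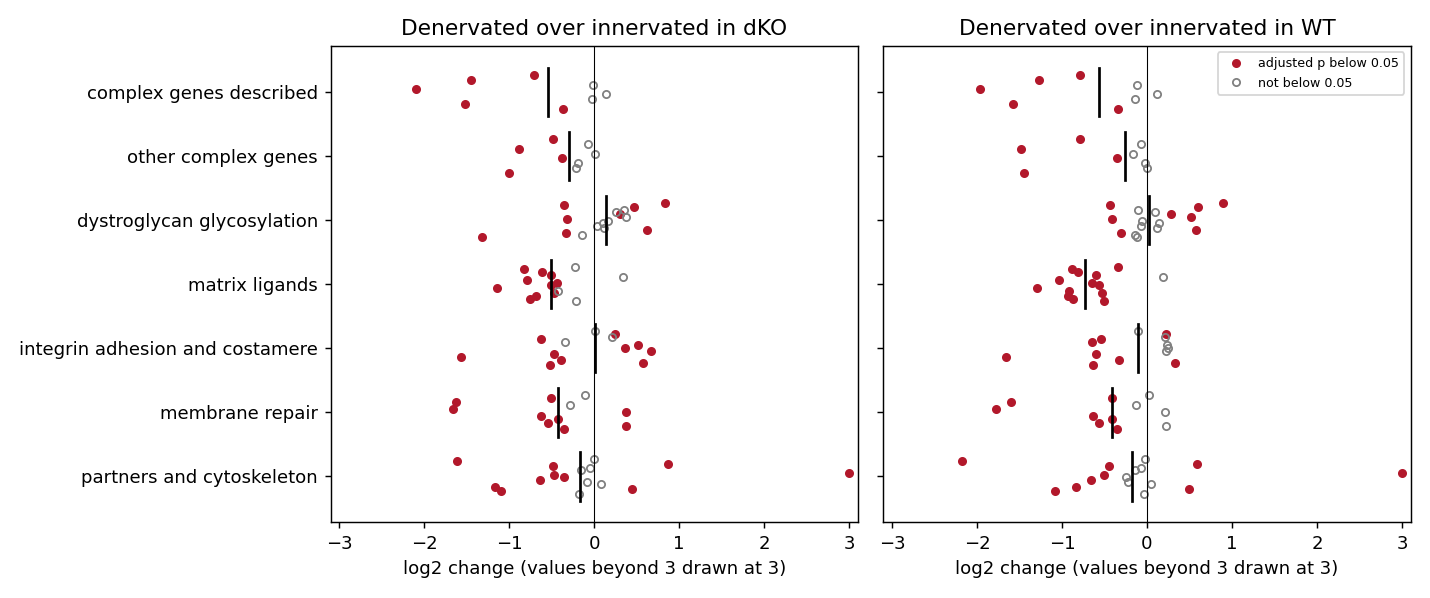
Log2 change of single genes, denervated over innervated legs (horizontal axis, values beyond 3 drawn at 3), for 7 gene lists (vertical axis), in dKO on the left and WT on the right; filled points had an edgeR adjusted p below 0.05, open ones did not, and the vertical bar is the list's median. The 8 complex genes reach from -2.10 to 0.14 in dKO and from -1.97 to 0.12 in WT, and the matrix ligands are nearly all left of 0.

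At the neuromuscular junction the complex takes part in holding acetylcholine receptors in place. Of 8 junction genes, 5 rose in dKO and 4 in WT, with 1 falling in each. Without innervated dKO replicate 1, 3 rose in dKO. Of all tested genes, 21.9% rose in dKO and 23.1% in WT, and 20.2% and 21% fell. Chrnd, the delta subunit of the receptor, rose by a log2 change of 4.42 in dKO and 4.21 in WT (edgeR adjusted p = 1.72e-10 and 2.63e-10). Musk, the receptor kinase that organises the junction, rose by 3.83 in dKO and 3.79 in WT (edgeR adjusted p = 1.26e-09 and 1.33e-09). Chrne, the epsilon subunit, was the gene that fell, with log2 changes of -0.71 in dKO and -0.79 in WT (edgeR adjusted p = 1.61e-04 and 7.21e-05). Dtna, whose loss in mice disturbs the junction, moved opposite to Chrnd and Musk in the same libraries, as given above, and fell like Chrne.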

How the data were processed

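RNA of 12 mouse tibialis anterior samples was sequenced from ribosomal-RNA-depleted, strand-specific libraries, per the labels' protocols. Per the submitters' processing notes, the tools were bcl2fastq 2.17.1.14, TopHat2 2.0.14, Bowtie and HTSeq 0.6.1 with build mm9; the sources used here name no annotation or counting option. Per the file headers, the deposited table holds raw counts per gene and normalized counts (a signal scaled between samples). It also holds the same signal divided by gene length, and the authors' log2 fold changes for 4 comparisons with p-values. No p-value header names the genotype comparison in denervated legs. Some p-value headers repeat, and the last pair was read as that comparison because it follows its fold change. Counts, log2 and p-values were used as deposited; the deposited fold changes run innervated over denervated and WT over dKO and were turned.

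The counts were tested with edgeR 4.0.16 (R 4.3.3): TMM scaling, filterByExpr by group (17201 of 31057 genes, 99.975% of counts), a quasi-likelihood fit (4 group means, 8 residual degrees of freedom), 5 contrasts, and Benjamini-Hochberg adjustment over all tested genes at 0.05. The script was tested on simulated counts. DESeq2 1.42.0 was an alternative. Positions and lengths come from GENCODE M21 (GRCm38), another build than the authors'. No near-identical copy of the 8 genes was found among its transcripts with BLAST 2.17.0 (98% identity, 50% coverage).

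The complex genes and the gene lists were chosen with earlier results of these data known. Named from the lists were up to 4 called genes per list and comparison with the largest change, and for pattern likeness the 3 genes of smallest root mean square difference. Some further complex genes are not reported here and stay out of the list counts. Within lists, 7 glycosylation symbols and 1 repair symbol had no gene of that name in the table.

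Replicate numbers were taken to pair the legs: deviations from group means correlated at 0.197 to 0.508 between same-numbered legs in dKO and 0.271 to 0.459 in WT, against -0.389 to 0.088 and -0.376 to 0.082 between different numbers. The pairing comes from this check; the controls were unoperated legs, but no label names the animal of a library. Alternatives were DESeq2, 2 other filters, 2 other scalings, the groups of a comparison alone, the replicate block, the 2 libraries lowest in base composition left out (chosen from earlier results), and each library left out in turn.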

Additional observations from a re-analysis of the deposited data

How the results depend on the processing

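Over 20 settings (19 for the interaction) the number of the 8 genes called stayed at 0 for both genotype comparisons and the interaction, ran from 4 to 5 for denervation in dKO and from 4 to 6 in WT, and Sgcd, Sspn, Dtna and Dag1 passed in every one. Of 792 single-gene values under alternatives, 724 kept direction and side of the threshold. Dmd lost its call in 14, given beside that gene; Sgca in WT (upper-quartile) and Sgcb in both genotypes (library totals) gained one. The replicate block changed no call among the 8 genes (list counts it moved stand beside those lists); with it Dmd had an edgeR adjusted p of 0.00643 in dKO and 0.0094 in WT. Signs turned for 51 values, none of them called, and the cause was not tested. With library totals, log2 changes after denervation were 0.14 (Sgca) and 0.18 (Sntb1) in dKO and 0.11 (Sgca) and 0.13 (Sntb1) in WT, dKO over WT was -0.02 for Dtna in denervated legs, and the Sgcb interaction was -0.05. With DESeq2, Sgca was 0.02 for dKO over WT in denervated legs and Sntb1 0.00 for denervation in dKO. Without both libraries lowest in base composition, dKO over WT in innervated legs was -0.01 for Sgcd, and the interactions were 0.14 for Dmd, 0.01 for Sgcd and -0.12 for Sntb1. With 1 library left out, dKO over WT in denervated legs ran from -0.40 to 0.16 for Sntb1, -0.05 to 0.07 for Sgca, -0.07 to 0.03 for Sgcb, -0.19 to 0.04 for Sgcd and -0.06 to 0.18 for Dtna, and in innervated legs from -0.01 to 0.07 for Sgcd and -0.09 to 0.02 for Sgcb. Denervation in dKO ran from -0.30 to 0.25 for Sntb1 and -0.07 to 0.05 for Sgca, and in WT from -0.30 to 0.07 for Sntb1. The interactions ran from -0.04 to 0.07 for Sgcb, -0.12 to 0.10 for Dmd, -0.22 to 0.01 for Sgcd, -0.19 to 0.36 for Sntb1, -0.03 to 0.22 for Dag1 and -0.02 to 0.21 for Dtna. The genotype counts over all genes moved more: 62 in denervated legs became 289 with DESeq2, 252 without a filter, 4 with those groups alone and 11 to 54 with 1 library left out, and 79 in innervated legs became 264, 240, 46 and 27 to 113, and 50 without both libraries lowest in base composition. Without a filter 2 genes passed the interaction test. With 3 legs a group, Sntb1 (2.96 to 6.73 CPM) limits what could be detected most.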
